A study of Arabidopsis thaliana with 36 samples.

Results

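Transcript levels of 9 auxin inactivation genes were followed across 12 genotypes of Arabidopsis thaliana seedlings. The genes were taken by locus, by a rule that uses no measured value, although earlier results of these data were known when they were chosen: GH3.1 (AT2G14960), GH3.2 (AT4G37390), GH3.3 (AT2G23170), GH3.4 (AT1G59500), GH3.5 (AT4G27260), GH3.6 (AT5G54510), GH3.17 (AT1G28130), DAO1 (AT1G14130) and IAGLU (AT4G15550). All 9 loci stood among the 32548 genes of the deposited tables, and 8 of the 9 passed a filter on low values that 23297 genes passed. GH3.4 did not pass and has no test.

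Total RNA came from 12-day-old seedlings raised on medium under long days (16 h light and 23 °C, then 8 h dark and 22 °C), with 3 libraries per genotype and 36 libraries in all. The wild type is compared here with 11 homozygous mutants in genes of SWI/SNF complexes, ATP-driven machines that shift or evict nucleosomes. The mutants are brm (brm-/-), brd1213 (brd1-/-brd2-/-brd13-/-), brip12 (brip1-/-brip2-/-), syd (syd-/-), swi3d (swi3d-/-), sys123 (sys1-/-sys2-/-sys3-/-), minu12 (minu1-/-minu2-/-), pms2ab (pms2a-/-pms2b-/-), swp73b (swp73b-/-), bcl7ab (bcl7a-/-bcl7b-/-) and an3 (an3-/-). The series names 3 classes of complex. From knowledge of the study, the BAS class (ATPase BRM) is represented by brm, brd1213 and brip12, the SAS class (ATPase SYD) by syd, swi3d and sys123, and the MAS class (ATPases MINU1 and MINU2) by minu12 and pms2ab, while swp73b, bcl7ab and an3 belong to none. The labels give neither the alleles nor whether the libraries of a group were grown apart, so p-values measure the spread between these libraries, which may be technical.

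Auxin is made in plants mainly as indole-3-acetic acid, and its level in a cell depends on removal as well as on synthesis. GH3 enzymes of the auxin-conjugating group join indole-3-acetic acid to amino acids, and conjugates with aspartate or glutamate are on the way to breakdown. DAO1 is a dioxygenase of the auxin oxidation route, and IAGLU is annotated as a glucosyltransferase of indole-3-acetic acid. Several GH3 genes, GH3.2, GH3.3 and GH3.5 among them, are classic early auxin-induced genes, so their transcripts are used as readouts of auxin response as well as of its removal.

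The stretches of DNA just before the annotated gene starts of 4 members are shown because, of the members, these varied most across genotypes: GH3.2, GH3.3 and IAGLU rose in every BAS mutant and fell in 2 or 3 of the 3 SAS mutants, and GH3.5 was lower than wild type in most mutants. Each run is the 250 bases upstream of the gene's start in RefSeq's TAIR10.1 assembly, read 5′ to 3′ on the gene's own strand. The windows lie at chr4:17579368-17579617 (plus strand) for GH3.2, chr2:9866563-9866812 (minus strand) for GH3.3, chr4:13653329-13653578 (plus strand) for GH3.5 and chr4:8879328-8879577 (minus strand) for IAGLU. Capitals mark the letters TGTCTC, the classic auxin response element, and CACGTG, the G-box read by bHLH and bZIP factors.
GH3.2: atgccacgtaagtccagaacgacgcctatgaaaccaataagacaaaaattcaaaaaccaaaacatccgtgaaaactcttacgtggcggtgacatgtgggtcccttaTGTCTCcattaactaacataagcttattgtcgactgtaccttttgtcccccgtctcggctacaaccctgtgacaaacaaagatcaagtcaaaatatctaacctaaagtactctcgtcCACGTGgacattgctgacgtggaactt
GH3.3: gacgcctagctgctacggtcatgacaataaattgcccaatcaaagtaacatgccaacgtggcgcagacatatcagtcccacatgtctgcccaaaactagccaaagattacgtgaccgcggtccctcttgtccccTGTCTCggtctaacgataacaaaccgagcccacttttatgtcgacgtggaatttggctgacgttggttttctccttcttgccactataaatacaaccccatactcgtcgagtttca
GH3.5: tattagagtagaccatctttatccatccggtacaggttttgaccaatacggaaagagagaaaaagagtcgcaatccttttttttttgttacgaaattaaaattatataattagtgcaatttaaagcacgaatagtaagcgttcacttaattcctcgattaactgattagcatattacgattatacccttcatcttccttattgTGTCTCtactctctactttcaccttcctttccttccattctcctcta
IAGLU: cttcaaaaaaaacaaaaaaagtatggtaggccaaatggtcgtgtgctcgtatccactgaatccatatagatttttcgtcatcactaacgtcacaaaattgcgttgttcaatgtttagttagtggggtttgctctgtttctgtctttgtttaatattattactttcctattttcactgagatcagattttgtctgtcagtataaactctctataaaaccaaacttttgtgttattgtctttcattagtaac

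The letters TGTCTC and CACGTG, and the letters TGTCGG as another form read by auxin response factors, were searched on both strands, and no match overlapped another. TGTCTC was found once each before GH3.2, GH3.3 and GH3.5, at 139, 111 and 42 bases upstream of the start. It was present in 10.9% of the 27443 windows of that length before annotated protein-coding genes. CACGTG was found before GH3.2 only, 22 bases upstream, and was present in 6.49% of all windows. TGTCGG, present in 4.16% of all windows, was found before none of the 9 genes. The windows of GH3.1, GH3.4, GH3.6, GH3.17, DAO1 and IAGLU held none of these letters. A match is a run of letters and no evidence of binding, and its absence applies to this window alone.

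The libraries held 21070583 to 23761910 recovered reads on genes, and 1 CPM, the deposited value scaled to the common library size, stood for 23.1 reads. The mutated genes were looked at first. Of 17 tied to a locus here, 14 had less transcript in their mutant, AN3 did not pass the test in an3 (limma adjusted p = 0.896), BRD1 was at 200% of wild type in brd1213, and SYD was at 165% of wild type in the libraries labelled syd. No locus was tied to pms2ab. In brd1213 BRD2 was at 46.7% and BRD13 at 0.149% of wild type. In sys123 SYS1, SYS2 and SYS3 were still at 74.1%, 69.6% and 84.3% of wild type. In brip12 BRIP1 was at 64.9% and BRIP2 at 16.4%. The levels of SYD and AN3 give no check of the labels syd and an3, and the small falls of the SYS genes give a weak check of sys123. Directions in these lines rest on the labels. The summed level of 5 photosynthesis markers of shoots ran from 63.8% of wild type in pms2ab and 70.1% in swp73b to 128% in bcl7ab. That of 6 root markers ran from 67.8% in brm and 74.6% in pms2ab to 120% in swi3d, and all 11 markers were detected in every genotype. In whole seedlings, fewer cells of a type and less RNA per cell cannot be told apart.

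The 9 genes spanned a wide range of expression. Per kilobase of exon, the wild-type level was highest for GH3.5 at 79.5 ± 16.3 CPM per kb (SD, n = 3). GH3.6 followed at 38.5 ± 7.88, GH3.3 at 30.2 ± 5.16, GH3.17 at 25.1 ± 0.851 and IAGLU at 17.3 ± 3.164 CPM per kb. GH3.2 stood at 12.3 ± 1.73, DAO1 at 5.14 ± 0.293 and GH3.1 at 2.76 ± 0.301 CPM per kb. GH3.4 was all but silent: 8 reads were recovered over all 36 libraries, in 7 of them, with at most 2 in a library. A count of 0 allows up to 3 reads, or 0.13 CPM, in a library, which covers counting error only. No change of GH3.4 was detectable at this depth in any genotype.

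**Figure D1:**
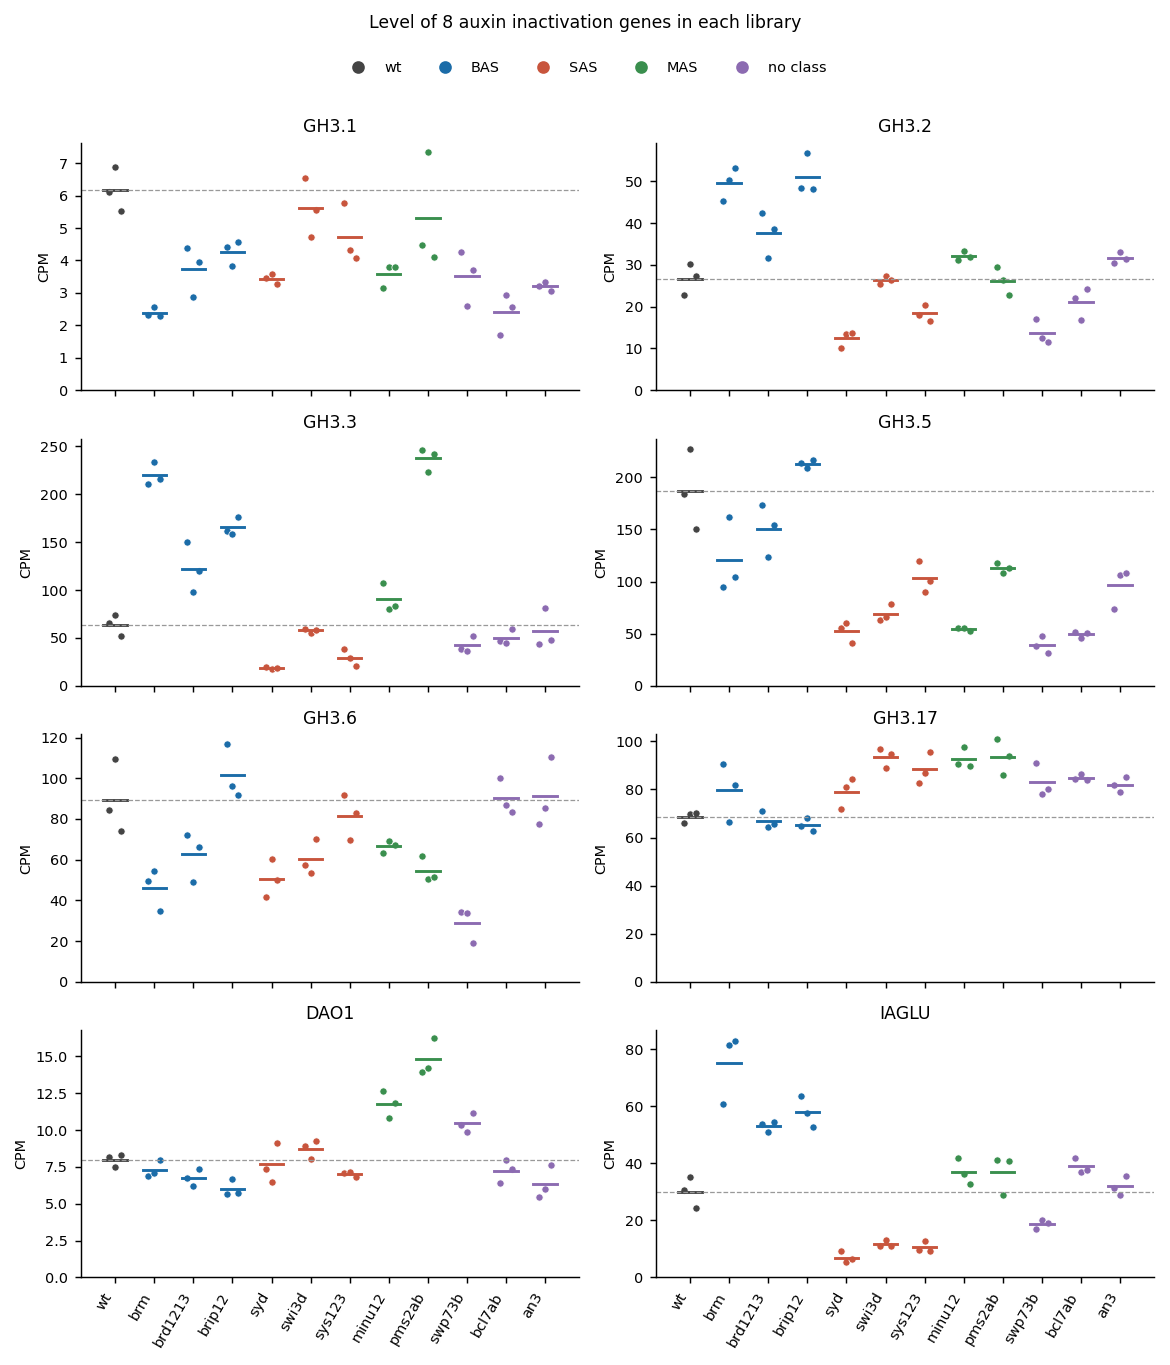
Level of the 8 tested genes in each library (CPM, linear axes from 0). Points are libraries, bars are means of 3 libraries, the dashed line is the wild-type mean, and colours give the class of the mutant. GH3.3 ran from a mean of 18.8 CPM in the libraries labelled syd to 237 CPM in pms2ab, whereas GH3.17 stayed between 65.2 and 93.6 CPM.

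Each mutant was compared with wild type by limma on log2(value + 1), where a log2 change of 1 is a doubling on that scale, in a single fit of all 36 libraries. Calls were made where the p adjusted by Benjamini-Hochberg over 23297 genes within the comparison was under 0.05. Over the 8 tested genes and 11 mutants there were 88 comparisons, of which 22 rose, 32 fell and 34 were not called. The share of all tested genes called in either direction ran from 10.8% in an3 to 58.8% in pms2ab. All 11 comparisons share the same 3 wild-type libraries, so a wild-type library that stands apart moves all of them together. Statements that a mutant's libraries lay above or below those of wild type are a description. The share of all genes with such separation was not computed. Without a call, libraries also lay apart for GH3.1 in brip12, GH3.2 in minu12 and an3, and GH3.6 in brd1213 and minu12. The same held for GH3.17 in the libraries labelled syd, DAO1 in brd1213 and sys123, and IAGLU in bcl7ab. The members differed in how far they moved: the gap between the highest and the lowest genotype mean was 3.66 for GH3.3 and 3.44 for IAGLU on the log2 scale, larger than in 96% and 95.1% of all tested genes. It was 2.47 for GH3.5, 2.05 for GH3.2, 1.84 for GH3.6, 1.38 for GH3.1, 1.29 for DAO1 and 0.52 for GH3.17. The gap of GH3.17 exceeded that of 11.8% of genes.

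**Figure D2:**
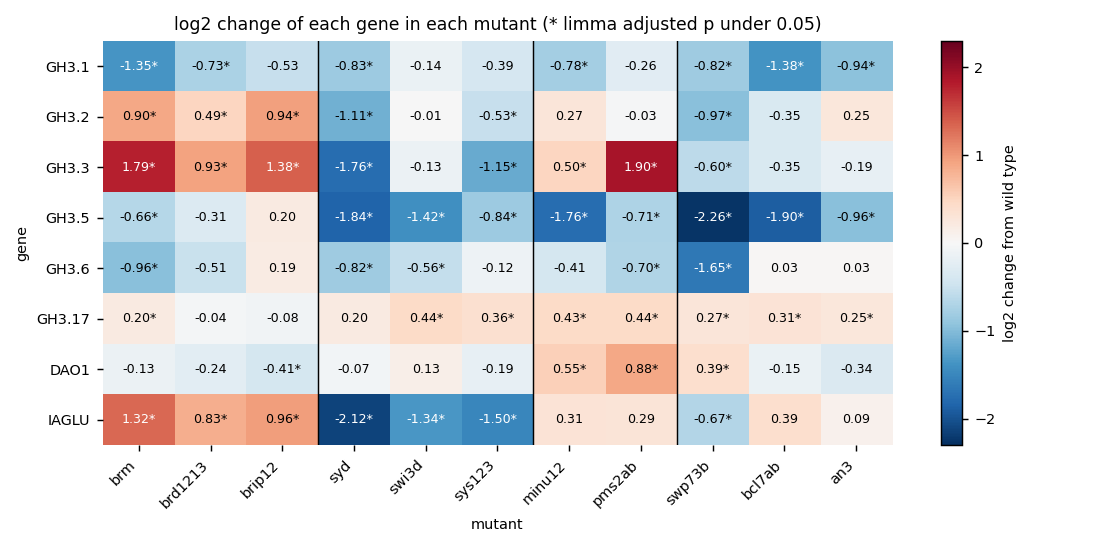
The log2 change from wild type of the 8 tested genes (vertical axis) in the 11 mutants (horizontal axis), from limma on log2(value + 1). Red is higher and blue lower than wild type, asterisks mark an adjusted p under 0.05, and vertical lines separate BAS, SAS, MAS and unclassed mutants. IAGLU and GH3.3 are red in all 3 BAS mutants. IAGLU is blue in all 3 SAS mutants.

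GH3.3 encodes an enzyme that conjugates auxin to amino acids. Its 3 wild-type libraries held 65.6, 74.0 and 52.4 CPM (64.0 ± 10.9, SD, n = 3). In brm the libraries held 211, 233 and 216 CPM, in brip12 162, 158 and 176 CPM, and in brd1213 150, 97.7 and 120 CPM. All 9 BAS libraries lay above every wild-type library. The mean was 3.44-fold that of wild type in brm (log2 change 1.79 ± 0.19 SE, limma adjusted p = 8.23e-09), 2.58-fold in brip12 (1.38 ± 0.19, limma adjusted p = 2.29e-06) and 1.91-fold in brd1213 (0.93 ± 0.19, limma adjusted p = 0.000641).

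The highest GH3.3 level was in a MAS mutant. The pms2ab libraries held 247, 223 and 242 CPM, 3.71-fold the wild-type mean (log2 change 1.90 ± 0.19, limma adjusted p = 1.04e-09). The minu12 libraries held 108, 80.0 and 83.3 CPM, also above all wild-type libraries, with a log2 change of 0.50 ± 0.19 (limma adjusted p = 0.0307). That smaller rise lost its call without some single libraries: the adjusted p was 0.0526 without wild-type library 1, 0.157 without wild-type library 3 and 0.165 without minu12 library 1. It was 0.064 when no filter on low values was set. The pair of MAS mutants differed from each other by 1.404 ± 0.191 on the log2 scale, pms2ab above minu12 (limma adjusted p = 2.52e-06), in a comparison where 29.2% of all genes were called in either direction.

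GH3.3 was lowest in the libraries labelled syd, which held 19.9, 17.7 and 18.6 CPM, or 29.3% of the wild-type level (a log2 change of -1.76 ± 0.19, limma adjusted p = 2.70e-08). The sys123 libraries held 38.1, 29.0 and 20.9 CPM (-1.15 ± 0.19, limma adjusted p = 3.95e-05). In swi3d, the third SAS mutant, they held 59.5, 55.5 and 58.4 CPM, within the wild-type range, and no change was called (-0.13 ± 0.19, limma adjusted p = 0.672). The libraries labelled syd lay below swi3d by 1.62 ± 0.19 (limma adjusted p = 1.96e-07; 21.6% of all genes were called between them). They also lay below sys123 by 0.60 ± 0.19 (limma adjusted p = 0.0258; 18.3% of genes called). So the SAS mutants, as labelled, did not move GH3.3 by the same amount. In swp73b, which lacks a subunit shared by complexes, the libraries held 38.8, 36.2 and 52.3 CPM, the highest of them just under the lowest wild-type library (-0.60 ± 0.19, limma adjusted p = 0.0104). That call was lost without wild-type library 2 (adjusted p = 0.0638) or swp73b library 2 (adjusted p = 0.0588). No change was called in bcl7ab (50.0 ± 7.95 CPM) or an3 (57.5 ± 20.2 CPM, with 80.7 CPM in library 2 against 43.9 and 47.9 CPM).

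GH3.2, another auxin-conjugating enzyme, followed a similar order at a lower level. Wild-type libraries held 22.7, 30.1 and 27.2 CPM (26.7 ± 3.75, SD, n = 3). It rose in all 3 BAS mutants. Libraries of brip12 held 48.3, 56.9 and 48.2 CPM (log2 change 0.94 ± 0.14, limma adjusted p = 8.40e-06), those of brm 45.2, 50.2 and 53.1 CPM (0.90 ± 0.14, limma adjusted p = 4.89e-06) and those of brd1213 42.4, 31.6 and 38.6 CPM (0.49 ± 0.14, limma adjusted p = 0.013). The libraries of each BAS mutant lay above all wild-type libraries. The brd1213 rise had an adjusted p of 0.0973 without wild-type library 1, 0.0825 without brd1213 library 1 and 0.068 in a fit of these 6 libraries alone.

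GH3.2 fell to 46.5% of wild type in the libraries labelled syd (10.03, 13.4 and 13.8 CPM; log2 change -1.11 ± 0.14, limma adjusted p = 5.43e-07) and to 51.3% in swp73b (17.0, 12.6 and 11.6 CPM; -0.97 ± 0.14, limma adjusted p = 2.06e-06). In sys123 it fell to 69.0% (18.1, 20.5 and 16.6 CPM; -0.53 ± 0.14, limma adjusted p = 0.00587). None of these libraries reached the wild-type range. In swi3d the mean was 98.8% of wild type, and no change was called there or in minu12, pms2ab, bcl7ab and an3. The libraries of minu12 and an3 lay above all wild-type libraries even so. Unlike GH3.3, GH3.2 was thus not called in pms2ab (26.2 ± 3.33 CPM; log2 change -0.03 ± 0.14, limma adjusted p = 0.886); the difference between the genes was not tested.

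IAGLU was higher in every BAS mutant and lower in every SAS mutant. The wild-type libraries held 30.6, 35.4 and 24.4 CPM (30.11 ± 5.499, SD, n = 3). In brm they held 60.6, 81.6 and 82.8 CPM, 2.49-fold wild type (log2 change 1.32 ± 0.16, limma adjusted p = 1.12e-07). In brip12 they held 63.7, 57.5 and 52.6 CPM (0.96 ± 0.16, limma adjusted p = 5.15e-05), and in brd1213 53.9, 50.9 and 54.4 CPM (0.83 ± 0.16, limma adjusted p = 0.000388). No BAS library overlapped the wild-type range.

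IAGLU fell to 23.2% of wild type in the libraries labelled syd, which held 9.16, 5.38 and 6.41 CPM (log2 change -2.12 ± 0.16, limma adjusted p = 2.65e-11). The sys123 libraries held 9.47, 12.9 and 9.39 CPM (-1.50 ± 0.16, limma adjusted p = 7.80e-08), and the swi3d libraries 11.2, 13.1 and 11.1 CPM (-1.34 ± 0.16, limma adjusted p = 6.63e-07). All 9 SAS libraries lay far below the lowest wild-type library. In swp73b IAGLU fell to 62.3% of wild type (16.9, 20.3 and 19.1 CPM; -0.67 ± 0.16, limma adjusted p = 0.00117). It was not called in minu12, pms2ab, bcl7ab or an3, whose means ran from 31.9 to 39.0 CPM.

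The last part of IAGLU lies over a neighbouring gene, AT4G15545, and 9.53% of the 50-base stretches of IAGLU transcript (161 of 1689) also occur in that gene. The sources used here do not say whether reads were counted by strand, so the 2 genes' reads may be mixed there. AT4G15545 was expressed at 232 ± 32.6 CPM in wild type, well above IAGLU. Its log2 change was 0.05 ± 0.09 in brm, -0.04 ± 0.09 in swi3d, 0.18 ± 0.09 in sys123 and 0.06 ± 0.09 in the libraries labelled syd, none of which passed the test. It rose by 0.29 ± 0.09 in brd1213 (limma adjusted p = 0.0258), 0.32 ± 0.09 in brip12 (0.0123) and 0.36 ± 0.09 in bcl7ab (0.00454). GH3.2 shared 1.65% of its 50-base stretches with GH3.3 and GH3.4, and GH3.3 shared 0.338%. GH3.1, GH3.5, GH3.6, GH3.17 and DAO1 shared none with another gene.

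GH3.5, whose product acts on salicylic acid as well as on auxin, was the most abundant member and was lower than wild type in 9 of 11 mutants. Its wild-type libraries held 184, 227 and 151 CPM (187 ± 38.4, SD, n = 3). The lowest level was in swp73b, with 38.1, 47.8 and 31.3 CPM, or 20.9% of the wild-type level (a log2 change of -2.26 ± 0.18, limma adjusted p = 6.60e-11). GH3.5 also fell in bcl7ab (51.4, 46.3 and 50.5 CPM; -1.90 ± 0.18, limma adjusted p = 4.60e-09), in the libraries labelled syd (55.3, 60.3 and 40.9 CPM; -1.84 ± 0.18, limma adjusted p = 2.84e-09) and in minu12 (55.4, 55.8 and 52.3 CPM; -1.76 ± 0.18, limma adjusted p = 2.77e-09). These mutants belong to different classes, or to none. Smaller falls were called in swi3d (69.3 ± 7.71 CPM; -1.42 ± 0.18, limma adjusted p = 9.79e-07), an3 (96.5 ± 19.4 CPM; -0.96), sys123 (104 ± 15.2 CPM; -0.84), pms2ab (113 ± 4.84 CPM; -0.71) and brm (120 ± 36.6 CPM; -0.66). In brm, library 2 held 162 CPM and lay within the wild-type range, against 94.4 and 104 CPM in the others. The libraries of the other 8 mutants with a call lay below all wild-type libraries. The exceptions were 2 BAS mutants, brd1213 (150 ± 24.9 CPM; log2 change -0.31 ± 0.18, limma adjusted p = 0.24) and brip12 (212.8 ± 3.899 CPM; 0.20 ± 0.18, limma adjusted p = 0.443). Between the MAS mutants GH3.5 was lower in minu12 than in pms2ab by 1.05 ± 0.18 (limma adjusted p = 4.96e-05). GH3.3 and DAO1 were lower in minu12 as well.

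GH3.6, also known as DFL1 and close in sequence to GH3.5, fell in 5 mutants and rose in none. Wild-type libraries held 84.5, 110 and 74.1 CPM (89.4 ± 18.3, SD, n = 3). The swp73b libraries held 34.4, 33.8 and 19.1 CPM, or 32.5% of the wild-type level (a log2 change of -1.65 ± 0.20, limma adjusted p = 7.94e-08). In brm they held 49.3, 54.3 and 34.6 CPM (-0.96 ± 0.20, limma adjusted p = 0.000141), in the libraries labelled syd 41.5, 60.1 and 49.9 CPM (-0.82 ± 0.20, limma adjusted p = 0.00217) and in pms2ab 61.6, 50.5 and 51.6 CPM (-0.70 ± 0.20, limma adjusted p = 0.00291). All these libraries lay below the wild-type range. In swi3d the change was -0.56 ± 0.20 (57.4, 53.3 and 70.4 CPM; limma adjusted p = 0.0391), a call that rested on single libraries: the adjusted p was 0.0714 and 0.186 without wild-type library 1 or 2, and 0.105 and 0.141 without swi3d library 1 or 2. It was 0.0822 with no filter and 0.0551 in a fit of the groups compared. GH3.6 stood at 101% of wild type in bcl7ab, where GH3.5 stood at 26.4%.

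GH3.1, the least expressed of the tested GH3 members, fell in 7 mutants and rose in none. The wild-type libraries held 6.11, 6.88 and 5.54 CPM (6.18 ± 0.674, SD, n = 3), from 136 to 153 reads each. The lowest levels were in brm (2.32, 2.57 and 2.29 CPM; log2 change -1.35 ± 0.21, limma adjusted p = 3.13e-06) and bcl7ab (1.70, 2.93 and 2.55 CPM; -1.38 ± 0.21, limma adjusted p = 8.45e-06). Falls of -0.94 in an3, -0.83 in the libraries labelled syd, -0.82 in swp73b, -0.78 in minu12 and -0.73 in brd1213 on the log2 scale were called too, and in all 7 mutants the libraries lay below those of wild type. The brd1213 call was lost without wild-type library 2 (adjusted p = 0.051) or brd1213 library 2 (0.092). In pms2ab, where library 2 held 7.35 CPM against 4.48 and 4.09 CPM, no change was called with all libraries (-0.26 ± 0.21, limma adjusted p = 0.288), and a fall of -0.52 was called without that library (adjusted p = 0.037). GH3.1 fell in brm, brd1213 and minu12, where GH3.3 rose.

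GH3.17, an enzyme that favours glutamate as the amino acid, rose in 8 mutants and fell in none, by small amounts. Wild-type libraries held 66.1, 69.7 and 70.4 CPM (68.7 ± 2.33, SD, n = 3). The highest means were in pms2ab (101, 86.2 and 93.8 CPM; log2 change 0.44 ± 0.08, limma adjusted p = 4.50e-05) and swi3d (97.0, 88.7 and 94.6 CPM; 0.44 ± 0.08, limma adjusted p = 0.000275), each 1.36-fold wild type. It rose by 0.43 in minu12, 0.36 in sys123, 0.31 in bcl7ab, 0.27 in swp73b, 0.25 in an3 and 0.20 in brm. In all of these but brm, whose library 2 held 66.4 CPM, the mutant libraries lay above those of wild type. The rise in an3 (limma adjusted p = 0.0494) was lost without any single wild-type or an3 library (0.0683 to 0.164), in edgeR's test on recovered reads (0.0724) and with library totals as the scaling (0.22). The rise in brm (limma adjusted p = 0.0475) was lost without wild-type library 1 (0.144), 2 (0.071) or 3 (0.0586) and without brm library 1 (0.358) or 3 (0.141), while the change was 0.33 without brm library 2. The swp73b call was lost without swp73b library 1 (0.069), and the bcl7ab call with library totals as the scaling (0.263). No rise was called in brd1213 and brip12, at 97.6% and 94.8% of wild type, or in the libraries labelled syd (0.20 ± 0.08, limma adjusted p = 0.0898; 0.0361 without syd library 1).

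DAO1 rose in both MAS mutants and in swp73b. The wild-type libraries held 8.18, 7.48 and 8.33 CPM (7.99 ± 0.456, SD, n = 3), from 166 to 213 reads each. In pms2ab they held 13.9, 14.2 and 16.2 CPM, 1.85-fold wild type (log2 change 0.88 ± 0.12, limma adjusted p = 3.34e-07). In minu12 they held 12.7, 10.8 and 11.8 CPM (0.55 ± 0.12, limma adjusted p = 0.000376), and in swp73b 10.4, 9.90 and 11.2 CPM (0.39 ± 0.12, limma adjusted p = 0.00897). All 9 of these libraries lay above every wild-type library, and pms2ab lay above minu12 by 0.33 ± 0.12 (limma adjusted p = 0.0405). DAO1 fell in brip12 (5.69, 6.67 and 5.74 CPM; -0.41 ± 0.12, limma adjusted p = 0.0135), with an adjusted p of 0.0531 without wild-type library 3, 0.0596 and 0.0562 without brip12 library 1 or 3, and 0.0578 in a fit of the groups compared. It was not called in the other 7 mutants.

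The same values read by mutant give a different count for each line, set here beside the share of all 23297 genes called in that direction. In brm 4 of the 8 tested members rose and 3 fell, where 24.7% of all genes rose and 25.5% fell. In brd1213 3 rose and 1 fell (9.23% and 10.6% of all genes), and in brip12 3 rose and 1 fell (11.8% and 13.2%). The 3 that rose in brd1213 and in brip12 were GH3.2, GH3.3 and IAGLU, which rose in brm as well. In the libraries labelled syd none rose and 6 fell, where 11.9% of all genes rose and 11.3% fell, and the members' median log2 change was -0.97 against 0.01 for all genes. In sys123 1 rose and 4 fell (14.2% and 12.8%), with a median of -0.46, and in swi3d 1 rose and 3 fell (11.2% and 11%), with a median of -0.14.

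In minu12 3 rose and 2 fell, where 24.1% of all genes rose and 24.8% fell, and in pms2ab 3 rose and 2 fell, where 29% and 29.8% did. The members that rose were GH3.3, GH3.17 and DAO1 in both. In swp73b all 8 were called, 2 up and 6 down, where 23.9% of all genes rose and 25.5% fell, and the median was -0.75 against -0.01 for all genes. GH3.17 and DAO1 were the ones that rose there. In bcl7ab 1 rose and 2 fell (16.4% and 14.2% of all genes), and in an3 1 rose and 2 fell (5.03% and 5.74%). Markers moved with some of these results. Of the 5 shoot markers, 4 were called lower in swp73b and in pms2ab (sums of 70.1% and 63.8% of wild type), 3 in brm (84.3%), 2 in brip12 and in minu12 (80.7% and 86.3%) and 1 in brd1213 (86.2%), and 3 were called higher in bcl7ab (128%). Of the 6 root markers, 3 were called lower and 1 higher in brm (67.8%), 2 lower in pms2ab (74.6%) and 1 lower in bcl7ab (89.8%), while 2 were called higher in swp73b (114%) and in brip12 (106%), and 1 in swi3d (120%) and in minu12 (102%). Their part in the changes of the members was not tested. In the libraries labelled syd no marker was called, and the sums were 88.0% (shoot) and 114% (root) of wild type.

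The genotypes were ordered by mean level, and steps between neighbours were set against the spread. The neighbours were picked by the same means that were compared, and the 11 steps of a gene were not adjusted among themselves. The p-values of steps are thus a description. For IAGLU, 4 of the 11 steps between neighbours were called by limma. The step from brd1213 down to bcl7ab had an adjusted p of 0.0373 (30.5% of all genes called in either direction), that from wild type to swp73b 0.00117, that from swp73b to swi3d 0.00199 (35.4% of genes), and that from sys123 to the libraries labelled syd 0.00763. For GH3.2, 3 steps were called: brm above brd1213 (adjusted p = 0.0235; 39% of genes), pms2ab above bcl7ab (0.0479; 59.8% of genes) and sys123 above swp73b (0.0102; 53.1% of genes). For GH3.3 they were minu12 above wild type (0.0307), swp73b above sys123 (0.0152) and sys123 above the libraries labelled syd (0.0258). In GH3.6 the step from brm down to swp73b was called (0.00548; 42% of genes), and in DAO1 that from pms2ab to minu12. No neighbours were called in GH3.1, GH3.5 and GH3.17, although genotypes further apart in the order were.

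The classes were compared with each other by the mean over their mutants, a contrast that does not use the wild-type libraries. The SE and p of that contrast use the spread between libraries of a genotype. They leave out the spread between the mutants of a class. For GH3.3 the log2 difference was -1.62 for the libraries labelled syd minus swi3d, and -1.40 for minu12 minus pms2ab. SAS means include the libraries labelled syd. Between BAS and SAS 4 members were higher and 3 lower in BAS, where 27.4% of all genes were higher and 28.8% lower. IAGLU differed by 2.69 ± 0.09 on the log2 scale (limma adjusted p = 1.71e-19), GH3.3 by 2.38 ± 0.11 (5.57e-17), GH3.2 by 1.33 ± 0.08 (3.53e-14) and GH3.5 by 1.11 ± 0.10 (1.99e-10), all higher in BAS. GH3.1 (-0.41 ± 0.12, limma adjusted p = 0.00416), GH3.17 (-0.30 ± 0.05, 4.14e-06) and DAO1 (-0.21 ± 0.07, 0.0103) were lower in BAS. Not every pair of mutants followed its class. For GH3.1, brm minus swi3d was -1.20 (limma adjusted p = 2.01e-05). Against the libraries labelled syd, GH3.1 was not called in brd1213 (0.10, limma adjusted p = 0.75) or brip12 (0.31, 0.27). For GH3.5, brm minus sys123 was 0.18 (limma adjusted p = 0.393). The DAO1 difference had an adjusted p of 0.0601 with library totals as the scaling.

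**Figure D3:**
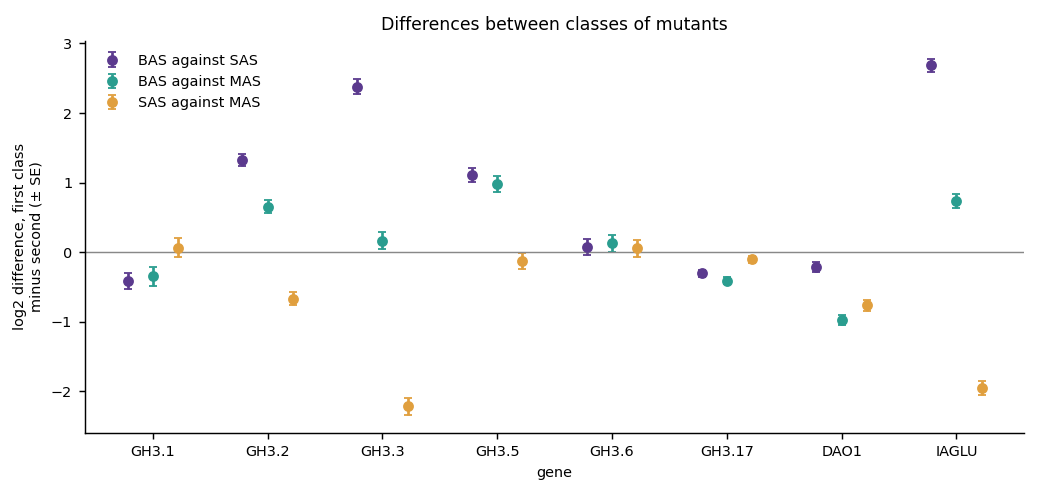
Differences between classes of mutants for the 8 tested genes (log2 scale, first class minus second, from limma on log2(value + 1)). Points are contrasts of class means and bars are ± SE, which leaves out the spread between the mutants of a class. The BAS against SAS difference is 2.69 for IAGLU and 2.38 for GH3.3, and all 3 differences of GH3.6 lie within 0.13 of 0.

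Between SAS and MAS no member was higher and 4 were lower in SAS, where 35.3% of all genes were higher and 34.3% lower. These were GH3.3 (-2.21 ± 0.12, limma adjusted p = 8.09e-16), IAGLU (-1.95 ± 0.11, 4.44e-16), DAO1 (-0.76 ± 0.08, 6.49e-10) and GH3.2 (-0.67 ± 0.09, 1.47e-07). Between BAS and MAS 3 members were higher and 3 lower in BAS, where 31.7% of all genes were higher and 32.9% lower. GH3.5 (0.98 ± 0.11, limma adjusted p = 1.21e-08), IAGLU (0.74 ± 0.11, 4.77e-07) and GH3.2 (0.65 ± 0.09, 3.10e-07) were higher, and DAO1 (-0.98 ± 0.08, 4.57e-12), GH3.17 (-0.41 ± 0.05, 1.30e-07) and GH3.1 (-0.35 ± 0.13, 0.0231) lower. The GH3.1 difference lost its call without brd1213 library 2 (0.0573), minu12 library 2 or 3 (0.0518 and 0.0514) or pms2ab library 2 (0.141, at -0.22). GH3.6 was called between no pair of classes (differences of 0.05 to 0.13, limma adjusted p of 0.393 to 0.72). Mutants within a class did differ in GH3.6. In BAS, brm minus brip12 was -1.16 (limma adjusted p = 1.49e-05) and brd1213 minus brip12 was -0.71 (0.0427). In SAS, the libraries labelled syd minus sys123 gave -0.70 (limma adjusted p = 0.0116).

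With syd and brd1213 left out of their classes, a setting chosen after seeing the data, every class difference called above kept its direction and call. IAGLU then differed by 2.56 and GH3.3 by 2.23 between BAS and SAS. The GH3.2 difference between SAS and MAS shrank to -0.39 (limma adjusted p = 0.00104), and GH3.3, not called between BAS and MAS with all mutants (0.17 ± 0.12, limma adjusted p = 0.24), was higher in BAS by 0.39 (adjusted p = 0.0144).

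Among the members, the profiles over the 12 genotype means were most alike for GH3.3 and IAGLU (Pearson's r = 0.845), GH3.2 and IAGLU (0.82) and GH3.2 and GH3.3 (0.819), and least alike for GH3.5 and GH3.17 (-0.644). GH3.5 and GH3.6, close in sequence, had an r of 0.517. These values describe 12 points that share libraries between genes. Over the 11 mutants alone they were 0.849, 0.82, 0.821, -0.575 and 0.462.

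The genes whose genotype means were most like those of a member were sought among 8541 genes with a symbol and a mean of at least 1 CPM (8542 for DAO1). For DAO1 they were UGT74B1 (r = 0.98), SOT17 (0.97) and SOT18 (0.97), all enzymes of the last steps of glucosinolate synthesis. For GH3.6 they were the Aux/IAA repressor gene IAA16 (0.95), the phosphate sensor gene SPX4 (0.94) and CPD (0.93), a brassinosteroid synthesis gene. For GH3.3 they were TSD2 (0.95), XTH24 (0.94) and MYB7 (0.94), and for GH3.2 ACS8 (0.94), an enzyme of ethylene synthesis, RAE1 (0.92) and BSK5 (0.90). IAGLU was nearest to EBP (0.95), SAM-2 (0.94) and LTP5 (0.94). For GH3.5 the nearest were MSBP1 (0.94), STP12 (0.94) and SAG20 (0.90), for GH3.17 MTHFR1 (0.97), PIRL9 (0.92) and PD1 (0.90), and for GH3.1 MYB94 (0.81), BIR1 (0.81) and PI4K GAMMA 4 (0.79). Each r is the highest of many over 12 means and is a description only.

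**Figure D4:**
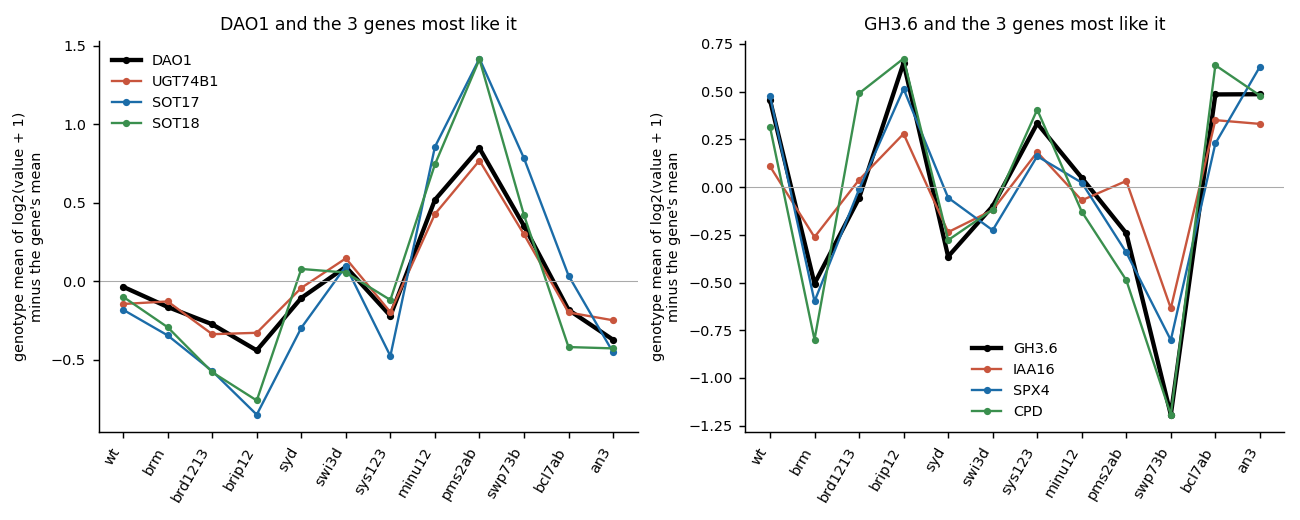
Genotype means of log2(value + 1), each gene centred on its own mean, for DAO1 (left) and GH3.6 (right) with the 3 genes of highest r over the 12 genotypes. DAO1 and its neighbours peak in pms2ab, and GH3.6 and its neighbours are lowest in swp73b.

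Other genes around auxin removal were read from lists. Of 12 further GH3 genes 10 were tested, of which 1 to 5 rose and 1 to 3 fell per mutant. Of all tested genes, 5.03% (an3) to 29% (pms2ab) rose and 5.74% (an3) to 29.8% (pms2ab) fell. In brm 5 of the further GH3 genes rose and 3 fell (where 24.7% of all genes rose and 25.5% fell). JAR1, which conjugates jasmonate and is also called GH3.11, fell in all 11 mutants, by 0.22 in bcl7ab to 0.55 in pms2ab on the log2 scale, from 97.9 ± 6.38 CPM in wild type. The comparisons share that wild type. DFL2, also called GH3.10, rose in 10 of 11 mutants, most in swi3d, from 23.0 ± 1.31 to 95.8 ± 8.21 CPM (log2 change 2.05 ± 0.12, limma adjusted p = 1.50e-12). It was not called in pms2ab (-0.09). GH3.9 fell in brm (-0.45), brd1213 (-1.02) and brip12 (-1.42) and rose in the libraries labelled syd (0.52), in sys123 (0.84), swi3d (0.46) and minu12 (0.71), on the log2 scale, from 6.06 ± 1.39 CPM in wild type, and was not called in pms2ab, swp73b, bcl7ab and an3. GH3.2, GH3.3 and IAGLU had the opposite calls in the BAS mutants and in the libraries labelled syd. The largest fall was of AT1G23160, annotated as a GH3 family protein, in bcl7ab (0.439 ± 0.134 to 0.0629 ± 0.0525 CPM; -2.31 ± 0.47, limma adjusted p = 0.000357), at a level of few reads.

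Of 5 other genes of auxin conversion 3 were tested. UGT74E2, which glucosylates indole-3-butyric acid, rose in pms2ab from 2.48 ± 0.849 to 16.6 ± 1.72 CPM (log2 change 2.78 ± 0.32, limma adjusted p = 1.45e-08) and by 2.65 in minu12. It rose by 1.13 in brm and 1.06 in swp73b, fell in sys123 (-1.10), and was not called in the other 6 mutants. IAMT1, which methylates indole-3-acetic acid, fell in swp73b from 9.19 ± 0.826 to 2.59 ± 0.669 CPM (-1.84 ± 0.19, limma adjusted p = 9.76e-09). It fell by 1.84 in the libraries labelled syd, by 1.62 in swi3d, by 1.46 in pms2ab and by 1.44 in sys123 as well, and rose in brd1213 (0.82) and brip12 (1.28). No change was called in brm (-0.26), minu12 (-0.44), bcl7ab or an3. The 8 genes listed as hydrolases of auxin conjugates were all tested, and the substrate of each was not examined here. Of these, 3 rose and 3 fell in pms2ab (where 29% of all genes rose and 29.8% fell). In brm none rose and 4 fell (24.7% and 25.5%). In each of the other mutants at most 1 rose and at most 2 fell. Of all genes, 5.03% (an3) to 24.1% (minu12) rose and 5.74% (an3) to 25.5% (swp73b) fell in those mutants. ILL6 fell most, in swp73b (29.1 ± 2.67 to 10.01 ± 1.397 CPM; -1.54 ± 0.15, limma adjusted p = 3.99e-09). ILL5 was called higher in pms2ab at 0.19 ± 0.103 CPM, with no read in wild type, so no fold is given.

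Of 13 auxin synthesis genes 11 were tested. In brm 5 rose and 1 fell (24.7% and 25.5% of all genes), in brd1213 3 rose and 1 fell (9.23% and 10.6%), and in brip12 4 rose and none fell (11.8% and 13.2%). None rose in the SAS mutants, while 5 fell in the libraries labelled syd (11.3% of all genes), 4 in sys123 (12.8%) and 3 in swi3d (11%). In minu12 2 rose and 1 fell (24.1% and 24.8%), in pms2ab 2 rose and 2 fell (29% and 29.8%), and in swp73b 2 rose and 5 fell (23.9% and 25.5%). In bcl7ab 4 rose and 1 fell (16.4% and 14.2%), and in an3 1 rose and none fell (5.03% and 5.74%). YUC8, a flavin monooxygenase of auxin synthesis, rose in brm (0.84), brd1213 (1.204) and brip12 (1.38) and fell in the libraries labelled syd (-1.12), sys123 (-0.71) and swi3d (-0.62), from 16.8 ± 2.58 CPM in wild type. It also fell in swp73b (-0.71) and pms2ab (-0.68), rose in bcl7ab (0.59), and was not called in minu12 and an3. Not all genes of the list followed YUC8. YUC3 fell in brm (-1.32) and brd1213 (-0.68) as well as in the libraries labelled syd (-0.71) and in swi3d (-0.56). TAA1 rose in brm from 8.94 ± 0.657 to 37.3 ± 6.57 CPM (2.04 ± 0.14, limma adjusted p = 4.88e-12). It also rose in brd1213 (0.63) and brip12 (0.67), and was called in no SAS mutant. YUC9 had the largest fall, in the libraries labelled syd (41.0 ± 8.89 to 8.24 ± 0.259 CPM; -2.28 ± 0.21, limma adjusted p = 1.00e-09), and fell in swi3d, sys123 and swp73b too. YUC7 had the largest rise on the log2 scale, in brm, at 0.424 ± 0.229 CPM against 0.0297 ± 0.0512 CPM, a level of few reads.

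Of 13 auxin-induced regulators, all tested, 8 fell and 1 rose in brm (25.5% and 24.7% of all genes), 2 fell and 3 rose in brd1213 (10.6% and 9.23%), and 1 fell and 4 rose in brip12 (13.2% and 11.8%). In the libraries labelled syd 6 fell and 1 rose (11.3% and 11.9%), in sys123 6 fell and 2 rose (12.8% and 14.2%), and in swi3d 5 fell and 3 rose (11% and 11.2%). In minu12 5 fell and none rose (24.8% and 24.1%), in pms2ab 5 fell and 1 rose (29.8% and 29%), in bcl7ab 1 fell and 3 rose (14.2% and 16.4%), and in an3 none fell and 2 rose (5.74% and 5.03%). In swp73b 8 fell and 2 rose (25.5% and 23.9%), and IAA29 had the largest fall (98.6 ± 21.2 to 14.5 ± 3.45 CPM; -2.77 ± 0.22, limma adjusted p = 5.44e-11). In brm the GH3.2 and GH3.3 transcripts rose, as did GH3.17 (log2 change 0.20), while GH3.5 (-0.66), GH3.6 (-0.96) and GH3.1 (-1.35) fell. Most of the 13 regulators fell there too, among them IAA19 by 0.51 and IAA29 by 0.93. Of 6 receptor genes 3 fell and none rose in each of brm, brd1213, brip12, pms2ab and swp73b, where 25.5%, 10.6%, 13.2%, 29.8% and 25.5% of all genes fell. In minu12 3 fell and 1 rose (24.8% and 24.1% of all genes). The fall of TIR1 was largest in brm (108 ± 8.46 to 68.8 ± 1.85 CPM; -0.65 ± 0.08, limma adjusted p = 1.14e-07). In sys123 4 rose and none fell (14.2% and 12.8%), and in bcl7ab 2 rose and 1 fell (16.4% and 14.2%). In swi3d 1 rose and 1 fell (11.2% and 11%). In an3 (5.03% and 5.74%) and the libraries labelled syd (11.9% and 11.3%) 1 rose and none fell. Of 5 activating auxin response factor genes 4 rose in bcl7ab and 3 in the libraries labelled syd, where 16.4% and 11.9% of all genes rose. In each of the other mutants 0 to 2 rose and 0 to 1 fell. Of all genes, 5.03% (an3) to 29% (pms2ab) rose and 5.74% (an3) to 29.8% (pms2ab) fell in those mutants. The largest rise was of ARF6 in the libraries labelled syd (57.1 ± 3.06 to 98.8 ± 7.23 CPM; 0.79 ± 0.08, limma adjusted p = 5.74e-09).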

How the data were processed

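Total RNA of seedlings was sequenced as single 50-bp reads, per the labels' protocols. HISAT2, edgeR and TAIR10 are named, without versions, in the submitters' processing notes. The sources used here do not name the annotation or the counter. In the 11 deposited tables all 66 value columns were used. The tables repeat the wild-type columns, which leaves 36 libraries. Per the file values, the deposited signal has the form of edgeR pseudo-counts at a common library size. Whole reads were recovered by inverting that adjustment at a fitted dispersion of 0.0127: 99.9991% of 1171728 values came out whole within 1e-04, and 11 did not. Recovered totals averaged 23094193 reads. Their TMM scaling differed from that of the deposited values by at most 0.000196 on the log2 scale.

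As planned for values that are not counts, limma 3.58.1 (R 4.3.3, with a trend) was run on log2(value + 1), each genotype having its own term, for genes whose mean value reached 1. Fold changes of genes near 0 are understated on that scale, and folds and percentages in the text are ratios of mean CPM. Alternatives were pseudocounts of 0.1 and 5, no filter, at least 1 CPM in 3 libraries, median-ratio and library-totals scaling, a replicate block, fits restricted to the groups compared, omission of each library in turn, and edgeR 4.0.16 (quasi-likelihood) and DESeq2 1.42.0 (Wald) on recovered reads. Classes without syd and brd1213 were added after seeing the data. The limma step was tested on simulated data.

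The 9 members and the gene lists were chosen with earlier results of these data known. The genes named are the members, the mutated genes, genes of the lists and, for each tested member, the 3 genes with the highest r. Of each list, the genes with the largest rise and fall are named. Some list genes were chosen after their values were seen: JAR1, GH3.9, DAO2, YUC8, YUC3, TAA1 and IAA19. So were the further mutants given for the others. All loci were matched to RefSeq's TAIR10.1 table for symbols. Sequences were read by locus from TAIR10.1, which was not compared here with the TAIR10 build of the deposited tables, and coordinates are those of TAIR10.1. The tables hold no coordinates. Figures were drawn with matplotlib 3.10.9.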

Additional observations from a re-analysis of the deposited data

How the results depend on the processing

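Of 112 pairs of a member and a comparison (8 genes, 14 comparisons), 71 were called. Of these, 59 kept their call in each alternative run for them: 10 other settings and 6 fits without a library for a mutant against wild type, and 11 settings and 15 or 18 such fits for a pair of classes. The other 12 lost it in at least 1 and were named above, and none reversed. Beyond the losses given there, GH3.17 lost its call in an3 with a pseudocount of 0.1 (adjusted p = 0.0503), no filter (0.0706), median-ratio scaling (0.0596) and a fit of only the groups compared (0.0846), and in brm with no filter (0.0646) and that fit (0.201). Of the 41 pairs not called, 12 were called in at least 1 alternative, among them GH3.1 in brip12 (-0.53, adjusted p = 0.0444 in DESeq2 and 0.0448 in the fit of only the groups compared), GH3.6 in brd1213 (-0.51, 0.0414 in DESeq2), GH3.2 in bcl7ab (-0.52, 0.00391 with library totals) and IAGLU in pms2ab (0.46, 0.0244 without pms2ab library 2). The count of members called stayed within 1.5 times its value in every comparison and setting. It ranged from 3 to 5 in brd1213, 4 to 6 in minu12 and 2 to 4 in an3, and was 6 in the libraries labelled syd and 8 in swp73b under each setting other than leaving out a library.

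Scaling by library totals moved the split of all called genes. The share rising went from 53.6% to 25.3% in bcl7ab (median shift -0.16), from 52.5% to 31.7% in sys123 (-0.10), from 47.3% to 36.8% in brip12, from 46.7% to 32.1% in an3 and from 48.3% to 61.2% in swp73b (0.10). It was 36.5% for an3 in the fit of only its groups. For mutants against wild type, fits of only the groups compared called fewer genes: 1405 rising and 1291 falling for syd (2782 and 2636 with all libraries), 1099 and 1447 for brd1213 (2150 and 2471), 1638 and 2096 for brip12 (2759 and 3071), 1523 and 1687 for swi3d (2612 and 2554), 1874 and 1769 for sys123 (3309 and 2991), 2445 and 2297 for bcl7ab (3812 and 3302), and 504 and 876 for an3 (1171 and 1338). Between BAS and MAS such a fit called slightly more, 7414 higher and 7726 lower in BAS (7391 and 7675 with all libraries).

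Replicate numbers were not taken as pairing the samples: the deviations of same-numbered mutant and wild-type libraries had a median r of 0.011 (-0.385 to 0.292), and in 2 of 11 mutants all 3 pairs exceeded 0.1. With the replicate number as a block, the count of members called was 7 in brm, 4 in brd1213, 4 in brip12, 6 in syd, 4 in swi3d, 5 in sys123, 5 in minu12, 5 in pms2ab, 8 in swp73b and 3 in bcl7ab, as without it. In an3 it was 4 in place of 3, since DAO1 was called there (-0.34, adjusted p = 0.0459). With 3 libraries per genotype, the standard error of a log2 change from wild type ran from 0.08 for GH3.17 to 0.21 for GH3.1, so the size of change that can pass differs between genes, and GH3.4 is below the depth.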
